A study of Homo sapiens with 9 samples.

Results

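The liver secretes most plasma proteins, and 34 genes for plasma carriers, apolipoproteins, protease inhibitors and acute-phase proteins were followed in Hep3B cells, a human hepatocellular carcinoma line that still transcribes much of this programme. The genes were chosen by name, with earlier results of these data known. Each was measured by its brightest probe set, the set of array probes that gives 1 signal. Of the 34, 32 were measured among 18417 genes: no probe set carried the name GC, and LCAT shared its probe set with SLC12A4 and was left out. The 9 arrays held 3 samples each of Hep3B cells given an siRNA against YAP, of Hep3B cells given a nonsense siRNA, and of untreated Hep3B cells. Cells grew for 24 h before transfection with Oligofectamine and for 24 h after it, and the untreated cells served as a control. Titles carry the prefix HUH although the cell line and description labels give Hep3B, and Hep3B is used here. Separate cultures are not stated for the 3 samples of a group, so p-values measure the spread among these samples, which may be technical.

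YAP, the product of YAP1, is a transcriptional coactivator that binds TEAD factors and is held out of the nucleus by the Hippo kinases. In liver it is known for its part in organ size and in tumours, and high activity goes with loss of the mature hepatocyte state. Plasma protein genes are switched on in hepatocytes by factors such as HNF1, HNF4 and C/EBP, and those of the acute phase also answer to interleukin 6 through STAT3 and to interleukin 1.

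Values are log2 array signals, on a scale where SERPINA6, at 0.27, is 1.21-fold higher. Having 3 arrays per group limits the precision. Array medians lay within 0.05 of each other, and pairs of arrays had a Pearson's r of 0.988 to 0.997 over the genes, a description since genes are no replicates. The YAP1 probe set gave 7.54, 7.52 and 7.48 after YAP siRNA, 8.66, 8.75 and 8.68 after nonsense siRNA, and 8.78, 8.62 and 8.69 in untreated cells. YAP1 was thus lower on all 3 YAP siRNA arrays, at 44.0% of the nonsense siRNA level (limma adjusted p = 4.34e-09). The 7 measured hepatocyte and hepatoma markers of a list of 9, among them AFP, KRT8 and GPC3 and also ALB, TTR and APOA2, had mean signals between 10.51 and 12.63 and none passed in a comparison by limma. Of the bile duct markers, KRT19 had a mean of 9.71, EPCAM 9.39, SOX9 8.61 and KRT7 6.95, and none of the 4 passed in a comparison. The 5 measured leukocyte markers lay between 5.99 and 7.29. Of 8 stromal and endothelial markers, COL1A2 (8.58 after YAP siRNA and 8.16 after nonsense siRNA) and PDGFRA (7.24 after YAP siRNA and 6.89 after nonsense siRNA) were higher after YAP siRNA, PDGFRA also against untreated cells (6.98). PDGFRA, PDGFRB, PECAM1, CDH5 and VWF had mean signals no higher than the brightest of the genes of unrelated tissues described next. COL1A1, COL1A2 and COL3A1 lay above it, at 8.39, 8.37 and 7.20. The part of the bile duct, stromal and endothelial markers in the results below was not tested. In bulk RNA, fewer cells that express a gene and less RNA per cell cannot be told apart.

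Most of the programme was well measured. The 9 measured genes of unrelated tissues, such as GCG of the pancreas and MYH7 of heart muscle, gave mean signals up to 7.08, and 23 of the 32 plasma protein genes lay above this. The 9 at or below it were FETUB, APOA4, SERPINA3, SERPINA7, ITIH1, ITIH3, ITIH4, CRP and HRG. For these the signal cannot be told from that of genes the cells should lack, and an unseen change could lie under it. HAMP and A1BG, with mean signals of 7.13 and 7.27, lay little above 7.08, and the same limit may hold for them. Signals of different probe sets do not rank transcripts by abundance.

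After YAP siRNA 4 of the 32 plasma protein genes were higher than a control by small amounts. Against nonsense siRNA, SERPINA6, AHSG and HPX rose, by 0.25 to 0.29 on the log2 scale, and 0 of 32 fell. That is 9.38% of the 32. Of all genes 4.53% passed, 1.92% higher and 2.61% lower (limma, Benjamini-Hochberg adjusted p under 0.05 over all genes). Against untreated cells SERPINA6 and AGT rose, and again 0 fell. That is 6.25% of the 32, beside 3.09% of all genes that passed, 1.63% higher and 1.46% lower. The shares of the 32 rest on 3 and 2 genes, and both comparisons use the same YAP siRNA arrays.

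**Figure D1:**
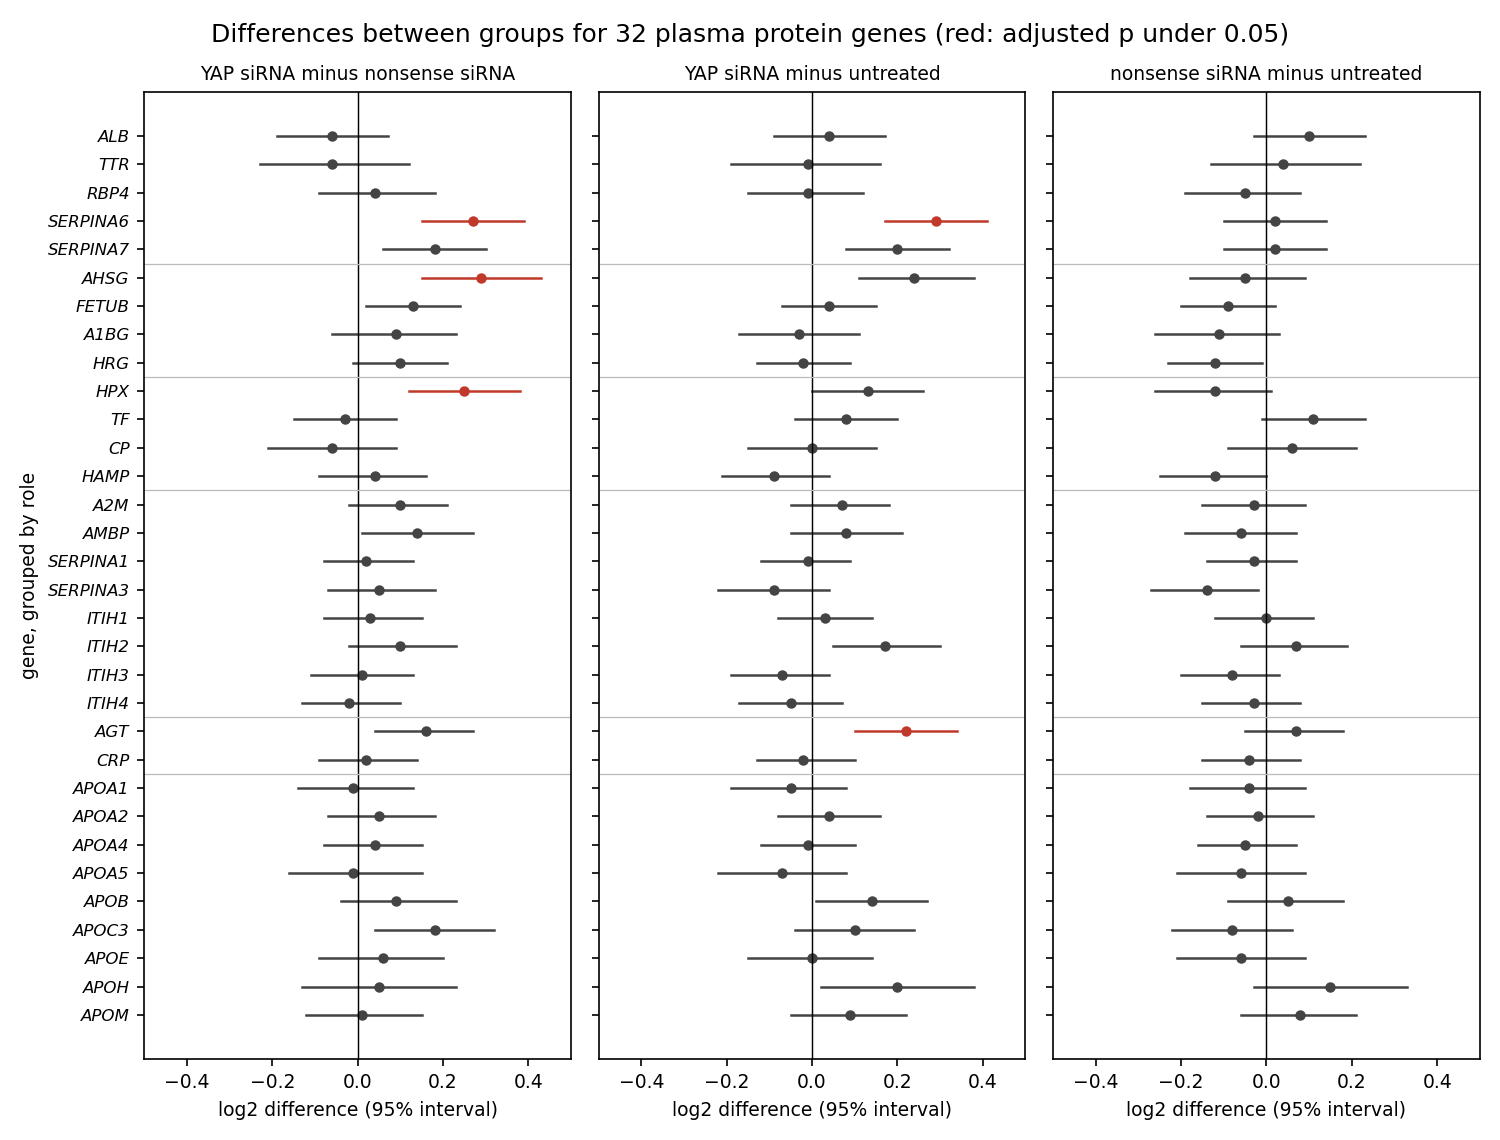
Log2 differences (x axis) of the 32 measured genes (y axis, grouped by role) for YAP siRNA minus nonsense siRNA, YAP siRNA minus untreated and nonsense siRNA minus untreated, with 95% intervals from limma. Red marks the genes with an adjusted p under 0.05, namely SERPINA6, AHSG and HPX in the left panel and SERPINA6 and AGT in the middle one. The other genes lie within 0.20 of 0 except AHSG at 0.24 in the middle panel.

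SERPINA6 encodes corticosteroid-binding globulin, the plasma carrier of cortisol, and was the gene that passed against both controls. It gave 8.15, 8.08 and 8.04 after YAP siRNA, 7.79, 7.88 and 7.77 after nonsense siRNA, and 7.75, 7.77 and 7.87 in untreated cells. The 3 YAP siRNA arrays lay at least 0.15 above all 6 control arrays, and the control groups overlapped. SERPINA6 rose by 0.27 against nonsense siRNA (SE 0.0562, 1.21-fold, limma adjusted p = 0.00943) and by 0.29 against untreated cells (SE 0.0562, 1.23-fold, adjusted p = 0.00792). The first call was lost without YAP siRNA replicate 1 (adjusted p = 0.0605), nonsense siRNA replicate 1 (0.0556) or nonsense siRNA replicate 3 (0.0512), and the second without YAP siRNA replicate 1 (0.0595). Over all genes, 0.695% were higher against both controls.

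AHSG encodes fetuin-A, a glycoprotein that keeps calcium phosphate in solution and whose level drops in the acute phase. Its signals were 9.05, 9.02 and 8.83 after YAP siRNA, 8.67, 8.67 and 8.69 after nonsense siRNA, and 8.76, 8.79 and 8.61 in untreated cells. All 3 YAP siRNA arrays exceeded the 6 control arrays, but replicate 3 exceeded the highest control by only 0.04. AHSG rose by 0.29 against nonsense siRNA (SE 0.065, 1.22-fold, limma adjusted p = 0.0162) and differed by 0.24 from untreated cells without passing (adjusted p = 0.0561). The call against nonsense siRNA was lost without YAP siRNA replicate 1 (0.0904), YAP siRNA replicate 2 (0.0824) or nonsense siRNA replicate 1 (0.0715). AHSG passed against untreated cells on dropping YAP siRNA replicate 3 (0.0127) or nonsense siRNA replicate 2 (0.0457).

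HPX encodes hemopexin, which binds free heme in plasma and brings it to the liver. The arrays gave 9.17, 9.12 and 8.99 after YAP siRNA, 8.76, 8.85 and 8.91 after nonsense siRNA, and 8.89, 9.03 and 8.98 in untreated cells. YAP siRNA arrays were above all nonsense siRNA arrays and overlapped with the untreated ones. HPX rose by 0.25 against nonsense siRNA (SE 0.0622, 1.19-fold, limma adjusted p = 0.0296), and differed by 0.13 from untreated cells (adjusted p = 0.338), the nonsense siRNA mean being 0.12 below the untreated mean (adjusted p = 0.287). The call was lost on leaving out nonsense siRNA replicate 1 (0.18), YAP siRNA replicate 1 (0.145) or YAP siRNA replicate 2 (0.11), and with arrays centred on their medians (0.0567).

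AGT encodes angiotensinogen, the precursor of the angiotensin peptides. It stood at 9.61, 9.56 and 9.48 after YAP siRNA, 9.40, 9.37 and 9.42 after nonsense siRNA, and 9.27, 9.40 and 9.32 in untreated cells. The 3 YAP siRNA arrays lay above the 6 control arrays, the gap being 0.06. AGT rose by 0.22 against untreated cells (SE 0.0548, 1.17-fold, limma adjusted p = 0.038) and differed by 0.16 from nonsense siRNA (adjusted p = 0.149). The call was lost on dropping replicate 1 (adjusted p = 0.201) or replicate 2 (0.149) of YAP siRNA, replicate 1 of nonsense siRNA (0.0619), or replicate 1 (0.167) or replicate 3 (0.0887) of untreated cells. With only the 6 arrays of the comparison the adjusted p was 0.0545.

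**Figure D2:**
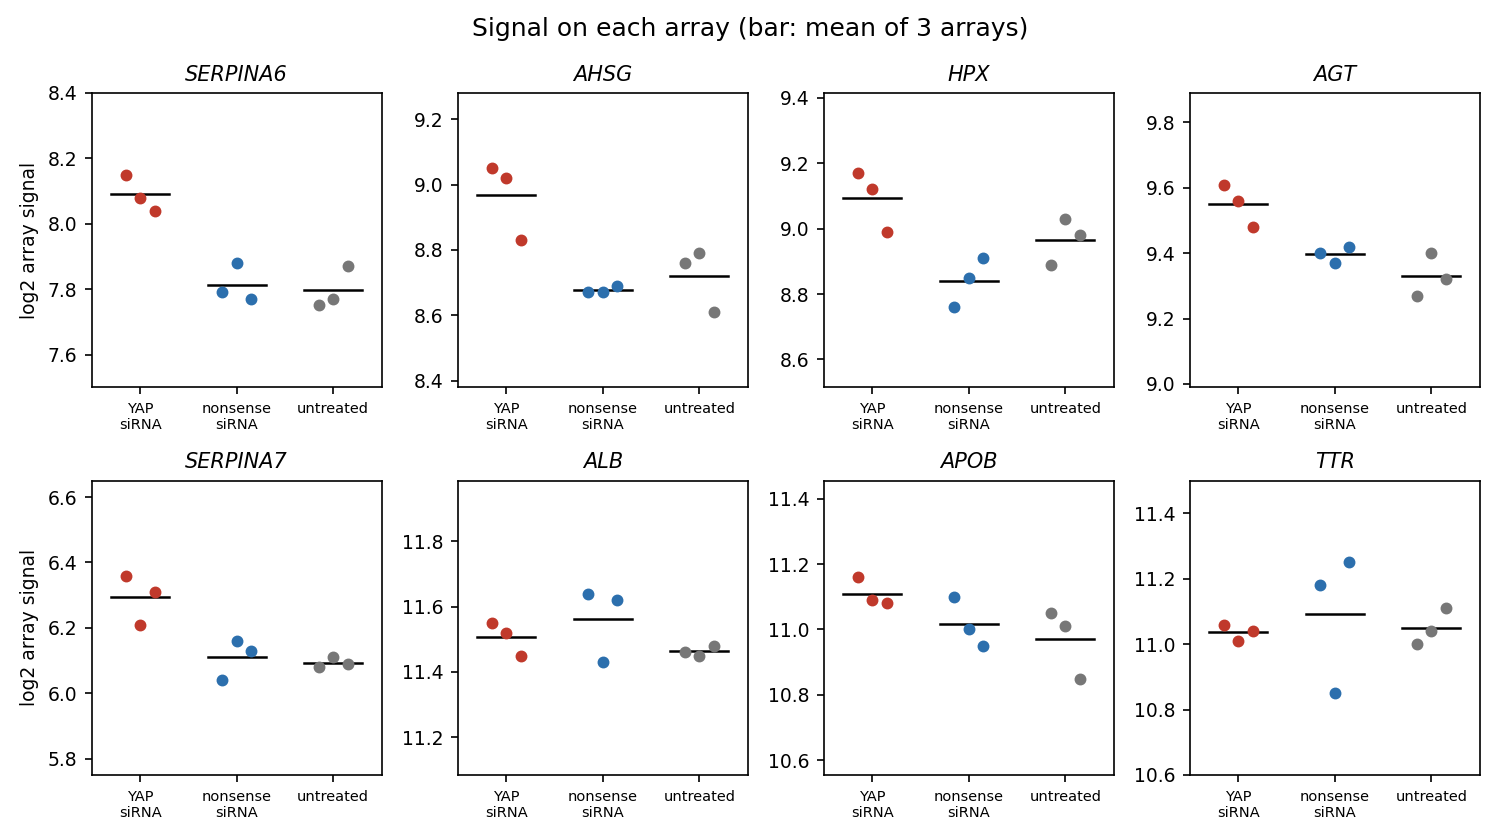
Log2 array signal (y axis, each panel spanning 0.9 units) on the 3 YAP siRNA, 3 nonsense siRNA and 3 untreated arrays (x axis) for 8 genes, each point an array and each bar the mean of 3. In SERPINA6, AHSG, AGT and SERPINA7 the YAP siRNA points lie above all control points, while in ALB, APOB and TTR the groups overlap with at least 1 control.

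The sequences upstream of these 4 genes, and of ALB as a gene that did not pass, show what the windows in front of them hold. RefSeq (GRCh38.p14) gave windows for 25 of the 34 genes, and the 250 bases before the annotated start are printed 5′ to 3′ on the gene's strand. Capitals mark matches on either strand. The motif searched for HNF1 was its half-site GTTAAT. For C/EBP the letters were TTGCNNAA, for HNF4 they were CAAAGTNCA, and for STAT3 they were TTCNNNGAA. The TATA box was searched as TATAAA, and the motif of TEAD factors as CATTCC. No 2 matches overlap in the windows shown. The windows are chr14:94323337-94323586 on the minus strand for SERPINA6, chr3:186612810-186613059 on the plus strand for AHSG, chr11:6440988-6441237 on the minus strand for HPX, chr1:230714123-230714372 on the minus strand for AGT and chr4:73404037-73404286 on the plus strand for ALB.
SERPINA6: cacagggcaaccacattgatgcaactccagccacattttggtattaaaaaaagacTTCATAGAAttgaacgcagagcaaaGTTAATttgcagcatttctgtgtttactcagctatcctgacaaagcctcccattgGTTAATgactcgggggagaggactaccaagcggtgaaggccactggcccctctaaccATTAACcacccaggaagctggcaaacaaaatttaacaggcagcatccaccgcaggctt
AHSG: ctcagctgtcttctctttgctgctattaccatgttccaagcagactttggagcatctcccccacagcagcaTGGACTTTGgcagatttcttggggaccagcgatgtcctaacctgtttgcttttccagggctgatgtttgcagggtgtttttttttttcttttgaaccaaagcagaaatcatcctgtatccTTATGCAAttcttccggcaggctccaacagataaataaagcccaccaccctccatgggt
HPX: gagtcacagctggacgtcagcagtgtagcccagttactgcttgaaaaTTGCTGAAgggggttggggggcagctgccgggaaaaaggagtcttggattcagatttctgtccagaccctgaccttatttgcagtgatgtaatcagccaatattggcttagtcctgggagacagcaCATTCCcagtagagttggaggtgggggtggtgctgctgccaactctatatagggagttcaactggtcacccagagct
AGT: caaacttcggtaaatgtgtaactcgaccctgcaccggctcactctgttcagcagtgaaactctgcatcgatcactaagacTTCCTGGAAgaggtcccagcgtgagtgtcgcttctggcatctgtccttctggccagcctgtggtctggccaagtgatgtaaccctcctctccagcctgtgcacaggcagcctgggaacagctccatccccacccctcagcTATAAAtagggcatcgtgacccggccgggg
ALB: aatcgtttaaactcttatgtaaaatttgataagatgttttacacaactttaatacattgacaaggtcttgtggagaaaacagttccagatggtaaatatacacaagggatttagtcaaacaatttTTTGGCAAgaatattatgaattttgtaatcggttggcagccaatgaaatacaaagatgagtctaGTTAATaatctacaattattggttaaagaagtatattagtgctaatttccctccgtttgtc

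The SERPINA6 window held 3 HNF1 half-sites, starting 170, 115 and 58 bases before the start, and 1 STAT3 match at 195. In the ALB window an HNF1 half-site began at 61 and a C/EBP match at 125. AHSG had an HNF4 match at 179 and a C/EBP match at 59, HPX a C/EBP match at 203 and a TEAD match at 77, and AGT a STAT3 match at 170 and a TATA box at 30. No one motif was found in all 4 windows of the genes that rose, and the TEAD letters were in the HPX window alone of the 5. Among 35116 windows of this length over the genome, 6.23% held the HNF1 half-site, 9.05% the C/EBP letters, 0.94% the HNF4 letters, 6.57% the STAT3 letters, 11.9% the TEAD letters and 10.7% the TATA letters. The 25 genes had 35 windows, of which 6 held the HNF1 half-site, 7 the C/EBP letters, 2 the HNF4 letters, 6 the STAT3 letters, 6 the TEAD letters and 7 the TATA letters. A match is a run of letters and not a shown binding site.

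None of the other hormone, vitamin and general carriers passed in a comparison. SERPINA7 encodes thyroxine-binding globulin. Its dim signal was 6.36, 6.21 and 6.31 after YAP siRNA, 6.04, 6.16 and 6.13 after nonsense siRNA, and 6.08, 6.11 and 6.09 in untreated cells. The YAP siRNA arrays lay above all 6 controls by 0.05, but SERPINA7 did not pass, with differences of 0.18 against nonsense siRNA (limma adjusted p = 0.0905) and 0.20 against untreated cells (adjusted p = 0.069). It passed against untreated cells with quantile normalization (adjusted p = 0.0343), with arrays centred on their medians (0.0471) and with a variance trend (0.0353).

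ALB, the gene of albumin, gave 11.55, 11.52 and 11.45 after YAP siRNA, 11.64, 11.43 and 11.62 after nonsense siRNA, and 11.46, 11.45 and 11.48 in untreated cells. The groups overlapped, and the 95% interval of the difference was -0.19 to 0.07 against nonsense siRNA and -0.09 to 0.17 against untreated cells. TTR, whose product transthyretin carries thyroxine and the retinol-binding protein, gave 11.06, 11.01 and 11.04 after YAP siRNA, 11.18, 10.85 and 11.25 after nonsense siRNA, and 11.00, 11.04 and 11.11 in untreated cells. The YAP siRNA and untreated arrays lay close together, and the nonsense siRNA arrays spread to both sides of them (SD 0.217). RBP4, the gene of that retinol-binding protein, differed by 0.04 from nonsense siRNA and by -0.01 from untreated cells.

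Of the genes for iron and copper handling, TF, which encodes transferrin, gave 11.40, 11.33 and 11.25 after YAP siRNA, 11.38, 11.33 and 11.35 after nonsense siRNA, and 11.19, 11.32 and 11.22 in untreated cells. Its YAP siRNA arrays overlapped with both control groups. HAMP, which encodes the iron hormone hepcidin, gave 7.02, 7.14 and 7.19 after YAP siRNA, 7.06, 7.12 and 7.05 after nonsense siRNA, and 7.12, 7.19 and 7.29 in untreated cells, and all groups overlapped. CP, the gene of the copper protein ceruloplasmin, differed by -0.06 and 0.00. None of the 3 passed in a comparison.

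AHSG lies beside relatives of the cystatin superfamily in the genome. In the gene order of RefSeq, the next 3 genes on one side are FETUB, HRG and KNG1. FETUB, which encodes fetuin-B, differed by 0.13 from nonsense siRNA (adjusted p = 0.214) and HRG, the gene of histidine-rich glycoprotein, by 0.10 (adjusted p = 0.363), with both signals in the range of genes the cells should lack. KNG1, the kininogen gene, differed by -0.17 (adjusted p = 0.0702). The neighbours of SERPINA6, SERPINA10 and SERPINA1, differed by 0.07 and 0.02 (adjusted p = 0.708 and 0.906). Around the 4 genes that rose, 20 further genes within 3 steps were measured, and 2 of them passed against nonsense siRNA and 2 against untreated cells, where 4.53% and 3.09% of all genes passed. APBB1, next to HPX, rose by 0.20 against nonsense siRNA (adjusted p = 0.0413). TTC13, near AGT, fell by 0.40 against nonsense siRNA and by 0.29 against untreated cells, and TIMM10B, near HPX, fell by 0.26 against untreated cells.

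The apolipoproteins carry lipids in plasma, with APOB as the structural protein of very-low-density and low-density lipoprotein, APOA1 and APOA2 as those of high-density lipoprotein, and APOE as a ligand of lipoprotein receptors. Of the 9 measured, 0 passed in any comparison by limma. At an unadjusted p under 0.05 there were 1 against nonsense siRNA, 2 against untreated cells and 0 between the controls, where 15.8%, 15.8% and 19.5% of all genes had such a p. APOB gave 11.16, 11.09 and 11.08 after YAP siRNA, 11.10, 11.00 and 10.95 after nonsense siRNA, and 11.05, 11.01 and 10.85 in untreated cells. Its YAP siRNA arrays lay above the untreated ones and overlapped with those of nonsense siRNA, with differences of 0.14 (adjusted p = 0.28) and 0.09 (adjusted p = 0.545).

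APOA1 gave 8.69, 8.86 and 8.69 after YAP siRNA, 8.77, 8.73 and 8.75 after nonsense siRNA, and 8.86, 8.68 and 8.85 in untreated cells, with full overlap. APOE gave 8.79, 8.89 and 8.95 after YAP siRNA, 8.80, 8.85 and 8.80 after nonsense siRNA, and 8.82, 8.77 and 9.04 in untreated cells, again with overlap. APOC3, whose product slows the clearance of triglyceride-rich particles, differed by 0.18 from nonsense siRNA (adjusted p = 0.152) with no overlap between those groups, and by 0.10 from untreated cells (adjusted p = 0.485). APOH differed by 0.20 from untreated cells (adjusted p = 0.262) and by 0.05 from nonsense siRNA (adjusted p = 0.865). The remaining members, APOA2, APOA4, APOA5 and APOM, differed by -0.07 to 0.09 in the YAP siRNA comparisons. The second probe sets of APOA1, APOA4 and APOC3 gave differences within 0.05 of those of the brightest, and the 3 probe sets of APOM held the same values.

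The protease inhibitors besides SERPINA1 and SERPINA3 were A2M, AMBP and the heavy chain genes ITIH1 to ITIH4. A2M encodes alpha-2-macroglobulin, and AMBP encodes bikunin with alpha-1-microglobulin. SERPINA1, which encodes alpha-1-antitrypsin, gave 9.62, 9.65 and 9.64 after YAP siRNA, 9.63, 9.58 and 9.63 after nonsense siRNA, and 9.66, 9.66 and 9.62 in untreated cells, the groups overlapping within 0.08. SERPINA3, which encodes antichymotrypsin, differed by 0.05 from nonsense siRNA and by -0.09 from untreated cells. AMBP gave 11.68, 11.78 and 11.63 after YAP siRNA, and its 6 control arrays lay between 11.44 and 11.62. The YAP siRNA arrays were thus above all controls, but by a gap that rounded to 0. The difference was 0.14 against nonsense siRNA (adjusted p = 0.267) and 0.08 against untreated cells (adjusted p = 0.577). ITIH2 differed by 0.10 and 0.17 (adjusted p = 0.459 and 0.156), A2M by 0.10 and 0.07, and ITIH1, ITIH3 and ITIH4, all dim, by -0.07 to 0.03. None of the 8 inhibitor genes passed by limma in a comparison.

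CRP, the gene of the acute-phase pentraxin C-reactive protein, gave 6.17, 6.19 and 6.06 after YAP siRNA, 6.16, 6.12 and 6.07 after nonsense siRNA, and 6.17, 6.15 and 6.15 in untreated cells. Its signal was in the range of genes the cells should lack on every array, and the groups overlapped. A1BG, an immunoglobulin-like plasma glycoprotein gene, differed by 0.09 and -0.03.

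Taking all 32 together, 5 had their 3 YAP siRNA arrays above the 6 control arrays, and 0 had them below. The 5 were SERPINA6, AGT, SERPINA7, AHSG and AMBP, the last by a gap that rounded to 0. They are 15.6% of the 32, beside 4.29% of all genes above and 3.61% below. Against nonsense siRNA 25 of 32 differences were positive (78.1%, beside 55.7% of all genes) with a median of 0.05, where that of all genes was 0.01. Against untreated cells 17 were positive (53.1%, beside 43.6%) with a median of 0.03, where that of all genes was -0.01. The 95% intervals of 28 genes against nonsense siRNA and of 27 against untreated cells lay within 0.3 of 0 (87.5% and 84.4%, beside 88.6% and 88.8% of all genes), and the bounds over all 32 were -0.23 to 0.43 and -0.22 to 0.41.

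**Figure D3:**
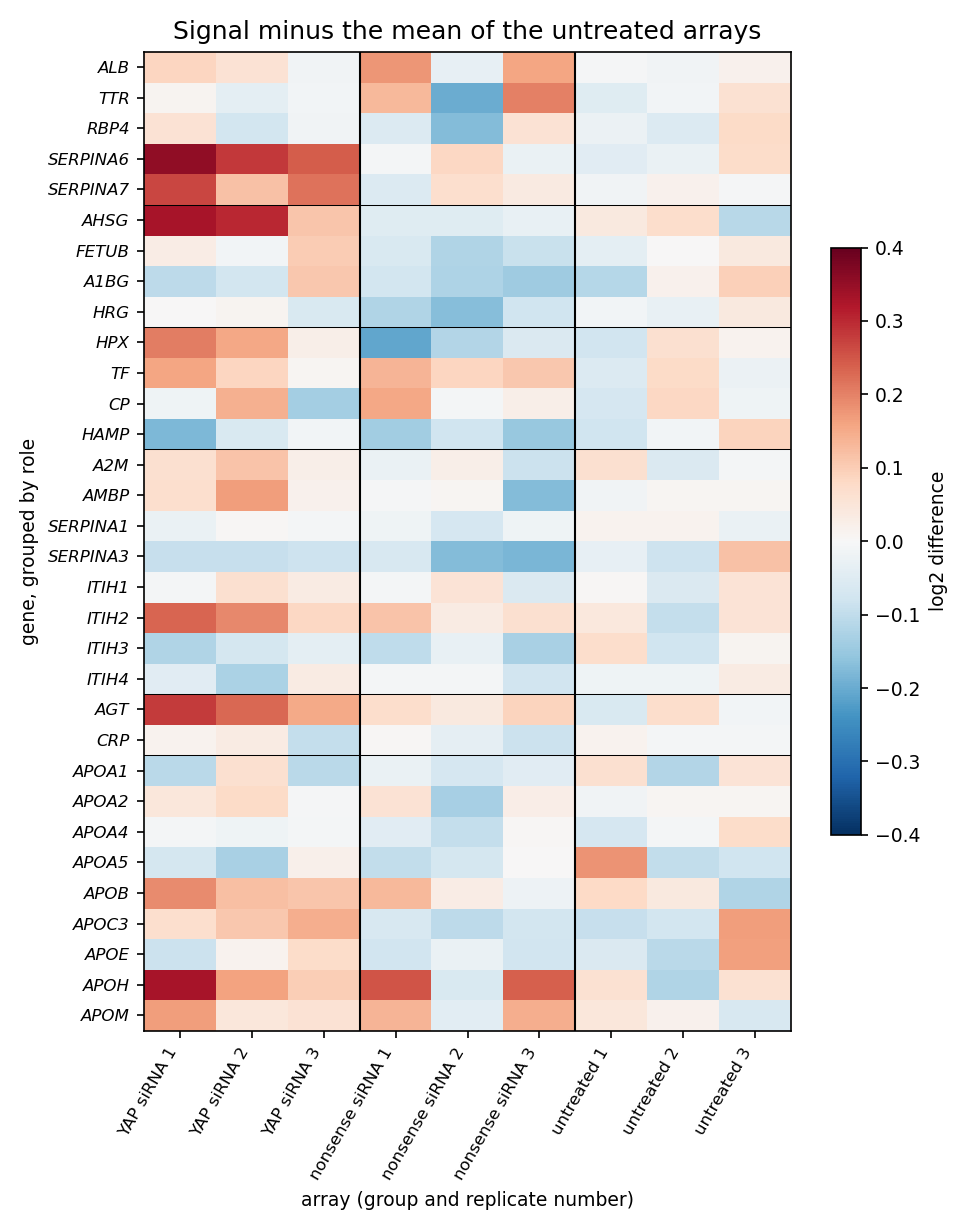
Log2 signal of each of the 32 genes (rows, grouped by role) on each array (columns, YAP siRNA, nonsense siRNA, untreated) minus the mean of the 3 untreated arrays, from blue (lower) to red (higher). Red runs through the 3 YAP siRNA columns for SERPINA6, SERPINA7 and AGT, and for others such as AHSG, APOB and ITIH2. In ALB, TTR and APOH nonsense siRNA replicate 2 is lower than the other nonsense siRNA arrays.

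Between nonsense siRNA and untreated cells 0 of 32 genes passed by limma. Of all genes 0.614% passed, 0.337% higher and 0.277% lower. Among the 32, SERPINA3 and HRG had an unadjusted p under 0.05, at -0.14 and -0.12, which is 6.25% beside 19.5% of all genes. The median difference was -0.04, where that of all genes was -0.02, and differences ran from -0.14 to 0.15. The array nonsense siRNA replicate 2 held the lowest value of its group for 17 of the 32 genes, beside 33.8% of all genes, and the highest for 9, beside 44.5%. YAP siRNA replicate 3 was the lowest of its group for 16 of the 32, beside 34.9% of all genes, and the highest for 10, beside 43.7%. Untreated replicate 3 was the highest for 18 of the 32, beside 43.4% of all genes. Without these 3 arrays, an alternative chosen after seeing the data, 3 genes passed between nonsense siRNA and untreated cells, all higher: ALB (0.18, adjusted p = 0.0487), TTR (0.20, adjusted p = 0.0377) and APOH (0.28, adjusted p = 0.0205). That is 9.38% of the 32, beside 12.6% of all genes that passed in this fit and 8.44% that were higher. In the same fit AHSG, HPX and SERPINA6 passed against nonsense siRNA, beside 6.99% of all genes, and AHSG, AGT, APOH, SERPINA6 and ITIH2 against untreated cells, beside 8.47%.

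Genes that act around these proteins were grouped in 4 further lists. The counts below rest on few genes each and stand beside the shares of all genes. Of all genes 1.92% rose and 2.61% fell against nonsense siRNA, and 1.63% rose and 1.46% fell against untreated cells. Among 16 measured genes of 22 listed for other apolipoproteins and for lipoprotein assembly and remodelling, 1 rose and 0 fell against nonsense siRNA and 2 rose and 0 fell against untreated cells. MTTP encodes the microsomal protein that loads lipid onto APOB. It gave 10.02, 10.10 and 9.93 after YAP siRNA, 9.72, 9.77 and 9.63 after nonsense siRNA, and 9.63, 9.67 and 9.67 in untreated cells, with the YAP siRNA arrays above all controls. MTTP rose by 0.31 against nonsense siRNA (SE 0.0576, limma adjusted p = 0.00454) and by 0.36 against untreated cells (SE 0.0576, adjusted p = 0.00206), and passed in all 17 alternatives of each comparison. ABCA1, the cholesterol exporter gene, rose by 0.26 against untreated cells (adjusted p = 0.033), a call kept in 4 of the 9 leave-one-out fits, in which an array is dropped in turn (up to 0.138, on dropping YAP siRNA replicate 1). Against nonsense siRNA ABCA1 differed by 0.11 (adjusted p = 0.464), and nonsense siRNA was 0.15 above untreated cells (adjusted p = 0.207).

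Other acute-phase and plasma protein genes, 22 measured of 24, gave 1 fall against nonsense siRNA and 2 rises against untreated cells. FGA, the fibrinogen alpha chain gene, fell by 0.24 against nonsense siRNA (adjusted p = 0.0367, kept in 3 of 9, highest 0.188 without nonsense siRNA replicate 3, and 0.0682 with only the 6 arrays of the comparison). Against untreated cells FGA differed by -0.06 (adjusted p = 0.666), and nonsense siRNA was 0.18 above untreated cells (adjusted p = 0.156). CPB2, which encodes a plasma carboxypeptidase that slows clot lysis, rose by 0.41 against untreated cells (adjusted p = 0.00771, kept in 7 of 9, highest 0.0536 without YAP siRNA replicate 2). TFRC, the transferrin receptor gene, rose by 0.28 against untreated cells (adjusted p = 0.0126, kept in 7 of 9, highest 0.0825 without YAP siRNA replicate 2). Against nonsense siRNA neither CPB2 nor TFRC passed, with differences of 0.10 and 0.15 (adjusted p = 0.621 and 0.211). For both genes the nonsense siRNA mean was above the untreated mean, by 0.31 for CPB2 (adjusted p = 0.0822) and by 0.14 for TFRC (adjusted p = 0.221).

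In the list of acute-phase signalling, with 28 of 29 genes measured, 0 rose and 3 fell against nonsense siRNA, and 2 rose and 1 fell against untreated cells. IL1RAP encodes the accessory chain of the interleukin 1 receptor. It gave 8.59, 8.64 and 8.48 after YAP siRNA, 9.13, 9.05 and 9.19 after nonsense siRNA, and 8.80, 8.77 and 8.84 in untreated cells, with 3 groups that did not overlap. IL1RAP fell by 0.55 against nonsense siRNA (SE 0.0581, limma adjusted p = 4.5e-05, kept in 9 of 9 leave-one-out fits) and by 0.23 against untreated cells (adjusted p = 0.0386, kept in 2 of 9, highest 0.117 without untreated replicate 1). The mean of cells given nonsense siRNA was 0.32 above that of untreated cells (adjusted p = 0.0253, kept in 4 of 9, highest 0.172 without nonsense siRNA replicate 1).

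IL6ST encodes gp130, the signal-transducing chain of the interleukin 6 receptor. It gave 10.13, 10.09 and 9.93 after YAP siRNA, 10.16, 9.96 and 9.99 after nonsense siRNA, and 9.75, 9.66 and 9.57 in untreated cells. Both transfected groups lay above the untreated arrays and overlapped with each other. IL6ST rose by 0.39 after YAP siRNA (adjusted p = 0.00503, kept in 9 of 9) and by 0.38 after nonsense siRNA (adjusted p = 0.0266, kept in 4 of 9, highest 0.215 without nonsense siRNA replicate 1), each against untreated cells. IL6R, the ligand-binding chain, rose by 0.22 after YAP siRNA against untreated cells (adjusted p = 0.0353, kept in 3 of 9, highest 0.187 without YAP siRNA replicate 2). Against nonsense siRNA IL6R differed by 0.18 without passing (adjusted p = 0.0827), and nonsense siRNA was 0.04 above untreated cells (adjusted p = 0.659). The interleukin 1 receptor gene IL1R1 fell by 0.21 against nonsense siRNA (adjusted p = 0.0424, kept in 2 of 9, highest 0.196 without nonsense siRNA replicate 1), and BMPR2, a receptor gene of the BMP signal that controls HAMP, fell by 0.29 (adjusted p = 0.00925, kept in 9 of 9). Against untreated cells IL1R1 differed by -0.09 (adjusted p = 0.479) and BMPR2 by -0.06 (adjusted p = 0.678). The nonsense siRNA means were above the untreated means, by 0.13 for IL1R1 (adjusted p = 0.241) and, with no overlap, by 0.23 for BMPR2 (adjusted p = 0.0846).

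Among the hepatocyte transcription factors, with 18 of 24 measured, 1 rose and 1 fell against nonsense siRNA and 1 rose against untreated cells. CREB3L3 encodes a membrane-bound factor of hepatocytes that is released by stress in the endoplasmic reticulum. It gave 7.83, 8.01 and 7.88 after YAP siRNA, 7.62, 7.79 and 7.55 after nonsense siRNA, and 7.68, 7.64 and 7.59 in untreated cells, with the YAP siRNA arrays above all controls. CREB3L3 rose by 0.25 against nonsense siRNA (SE 0.0659, limma adjusted p = 0.0396) and by 0.27 against untreated cells (SE 0.0659, adjusted p = 0.0334). Each call was kept in 3 of 9 leave-one-out fits (highest 0.187 without nonsense siRNA replicate 3, and 0.198 without YAP siRNA replicate 2). FOXA1, a pioneer factor gene, fell by 0.22 against nonsense siRNA (adjusted p = 0.0479, kept in 1 of 9 leave-one-out fits). Against untreated cells it differed by -0.10 (adjusted p = 0.448).

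**Figure D4:**
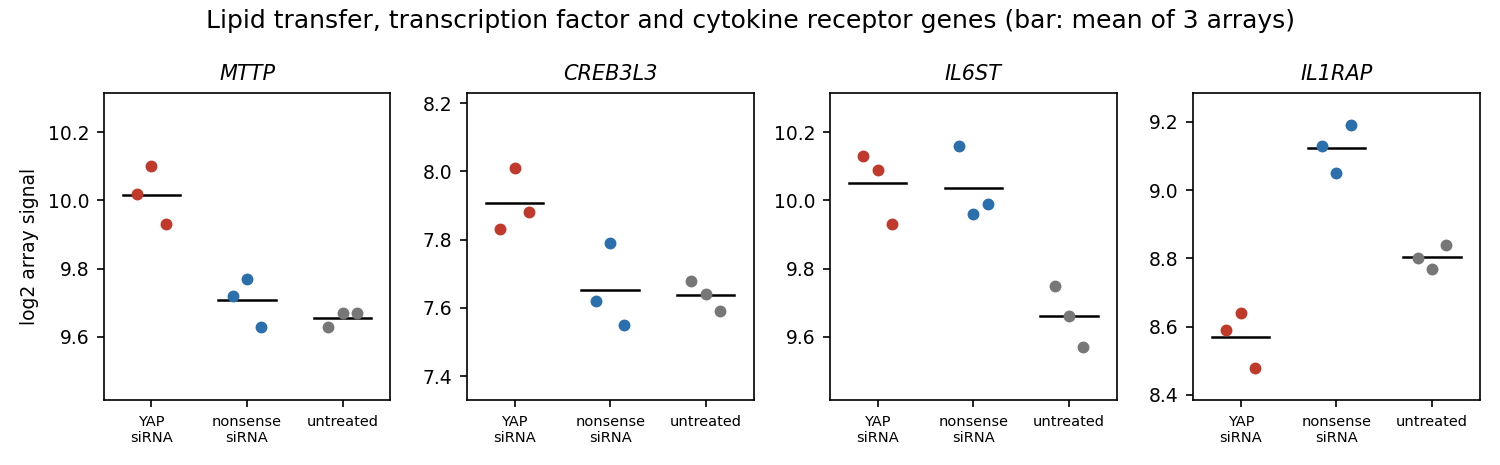
Log2 array signal (y axis, each panel spanning 0.9 units) of MTTP, CREB3L3, IL6ST and IL1RAP on the 3 YAP siRNA, 3 nonsense siRNA and 3 untreated arrays (x axis), each point an array and each bar the mean of 3. MTTP and CREB3L3 are highest after YAP siRNA, IL6ST is higher in both transfected groups than in untreated cells, and IL1RAP is lowest after YAP siRNA and highest after nonsense siRNA.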

How the data were processed

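Total RNA of the 9 samples was labelled as biotinylated cRNA for Affymetrix gene arrays, per the labels' protocols. The values are log2 signals as deposited by the authors, with the unit inferred from their range. How background, probe summary and scaling were handled is not stated by the labels. Of 33297 probe sets, 19460 carried 1 gene in the array annotation, 1754 several and 12083 were not listed. The probe set with the highest mean was used for 769 genes with several.

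All 9 arrays entered 1 linear model with a term for each group (limma 3.58.1, R 4.3.3, prior degrees of freedom 9.29), with no further scaling or filter. Tests were two-sided, with Benjamini-Hochberg adjustment over all 18417 genes, and the threshold was an adjusted p of 0.05. Each adjusted p comes from limma, SE is that of the fitted difference and SD that of 3 arrays. The genes named are all members and, in each of 4 context lists, up to 4 that passed per comparison. Members with values on each array are the ones that passed, 9 fixed ones and SERPINA7. The values of SERPINA7 and AMBP, for AMBP with a range for the control arrays, were added after they were seen. Members, context lists and motifs were chosen with earlier results of these data known. The fit was tested on simulated data. Figures used Python 3.11.15, pandas 2.3.3 and matplotlib 3.10.9.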

Additional observations from a re-analysis of the deposited data

How the results depend on the processing

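Between YAP siRNA and nonsense siRNA the count of plasma protein genes passing was 3, and 0 to 4 with 1 array left out, APOC3 joining without untreated replicate 3. It was 0 without YAP siRNA replicate 1 or nonsense siRNA replicate 1, 1 without YAP siRNA replicate 2 and 2 with arrays centred on their medians. Between YAP siRNA and untreated cells it was 2, and 0 to 3 with 1 array left out, being 0 without YAP siRNA replicate 1 and 1 without YAP siRNA replicate 2, nonsense siRNA replicate 1, untreated replicate 1 or untreated replicate 3. It was 1 with only the 6 arrays of the comparison, and 5 without the 3 arrays named above. Between nonsense siRNA and untreated cells it was 0, and 0 to 1 with 1 array left out, APOH reaching an adjusted p of 0.05 after rounding without nonsense siRNA replicate 2, and 3 without the 3 arrays.

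Over all genes 834, 569 and 113 passed in the 3 comparisons, and 426 to 1231, 279 to 775 and 11 to 1470 with 1 array left out. Without nonsense siRNA replicate 1 the first was 426 and the third 11, and without nonsense siRNA replicate 2 they were 1231 and 1470. The second was 279 without YAP siRNA replicate 2. Without the 3 arrays the counts were 1287, 1560 and 2319. Between nonsense siRNA and untreated cells 67 passed with only the 6 arrays of that comparison, and centring on medians gave 54 higher and 23 lower genes where 62 and 51 were found. For arrays of the same replicate number, r of deviations from group means ran from -0.34 to 0.34 over 9 pairs, 3 of them over 0.1. With 3 arrays per group these values cannot decide whether the replicate numbers pair the samples. With the replicate block the member counts were 3, 2 and 0, AHSG passing (adjusted p = 0.0469) in place of AGT (0.0636) against untreated cells, and 789, 509 and 65 of all genes passed. The block also ended the calls of FGA (0.0588), IL1R1 (0.0664) and FOXA1 (0.0646) against nonsense siRNA, of IL1RAP (0.0675) and IL6R (0.0556) against untreated cells, and of IL1RAP between the controls (0.0508). With only the 6 arrays of a comparison, FGA (0.0682), IL1R1 (0.0552), FOXA1 (0.0753) and CREB3L3 (0.0716) no longer passed against nonsense siRNA, nor IL6R (0.0512) against untreated cells. YAP1 passed against both controls in every alternative. No called gene reversed. The causes were not tested. Signals no higher than the brightest of the unrelated tissue genes limit 9 of the 32 genes, and HAMP and A1BG lay little above it.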
